A study of Rattus norvegicus with 4 samples.

Results

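MicroRNA (miRNA) reads of cultured rat costochondral chondrocytes were compared between the resting zone of the cartilage (RC-cells) and its growth zone (GC-cells). The comparison used 2 of the 4 libraries of the series, 1 from each cell type, and those of matrix vesicles (RC-MVs and GC-MVs, 1 library each), which chondrocytes shed and anchor in their matrix, were set beside them. Chondrocytes were dissected by zone from the rib cartilage of male Sprague Dawley rats and grown as a monolayer to confluence, and every library came from passage 4. No treatment separated the groups, which had in common the culture medium with serum and ascorbic acid, and neither the age nor the number of animals was given in the sources used here. With 1 library a side there was no replicate, so no test was made and the intervals below (95%, exact Clopper-Pearson for ratios) cover counting error only.

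In the growth plate, resting zone chondrocytes are the reserve population. Their descendants divide in columns, then enlarge to hypertrophic cells under the control of Runx2, and the growth zone culture stands for this more mature compartment. MiRNAs are cut from hairpin precursors as a 5p and a 3p arm, and each pairs with messenger RNAs mainly through its seed, bases 2 to 8. Many miRNA genes lie close together and are transcribed as a unit, so that a zone difference can be looked for in whole clusters.

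The RC-cells library held 6517329 miRNA reads and the GC-cells library 7414467, a depth ratio of 1.14. Of 740 miRNA names in the table, 474 had reads in both cell libraries, and 379 had at least 10 reads in each. These 379, which took 99.99% of the reads on each side, are the miRNAs described below. The 22 names read only in RC-cells reached 7 reads at most, and the 27 read only in GC-cells reached 10. Levels are given as the percent of all miRNA reads, and a miRNA was called higher in a zone when its percents differed at least 2-fold. A percent is a share of the pool, so that a larger share of the cells and more of the miRNA per cell cannot be told apart.

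The sequences below are those of the miRNAs that differed most between the zones, or that show how relatives differ. They are printed 5′ to 3′ from RefSeq (GRCr8) with the seed in capitals, and 344 of the 379 miRNAs had such an entry. The first set was higher in RC-cells. MiR-204-5p and miR-211-5p have the same seed and were 21 of 22 bases alike, with the difference A17U, counted from the 5′ end of miR-204-5p.
miR-204-5p: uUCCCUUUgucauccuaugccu
miR-211-5p: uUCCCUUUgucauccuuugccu
miR-450a-5p: uUUUGCGAuguguuccuaaugu
miR-542-3p: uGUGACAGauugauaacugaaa
miR-27b-3p: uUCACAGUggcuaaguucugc
miR-23b-3p: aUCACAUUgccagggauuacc
miR-410-5p: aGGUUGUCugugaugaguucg
miR-494-3p: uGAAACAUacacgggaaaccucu

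The second set was higher in GC-cells. The RefSeq sequence of miR-10b-5p starts 2 bases further along than that of miR-10a-5p, which gives the pair different seeds as annotated. So aligned, they were alike at 20 of 21 bases, and the difference was U12A, counted from the 5′ end of miR-10a-5p. Where the reads themselves began is not shown by the counts.
miR-10a-5p: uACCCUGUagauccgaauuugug
miR-10b-5p: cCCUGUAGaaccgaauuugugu
miR-10a-3p: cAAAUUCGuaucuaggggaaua
miR-490-3p: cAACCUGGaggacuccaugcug
miR-582-3p: aACCUGUUgaacaacugaaccc
miR-676: cCGUCCUGagcuugucgagcua
miR-132-3p: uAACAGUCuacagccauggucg
miR-212-3p: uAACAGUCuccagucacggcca

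The table names the products of the X-linked precursors miR-322, miR-503 and miR-351 without 5p or 3p. Their RefSeq arms can therefore not be assigned to the reads given below, and are shown for their seeds. That of miR-322-5p is the seed of miR-15b-5p, miR-16-5p, miR-195-5p and miR-497-5p, that of miR-503-5p begins in the same way, and that of miR-351-5p is the seed of miR-125a-5p and miR-125b-5p.
miR-322-5p: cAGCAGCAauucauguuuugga
miR-503-5p: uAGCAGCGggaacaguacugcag
miR-351-5p: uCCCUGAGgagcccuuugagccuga
miR-195-5p: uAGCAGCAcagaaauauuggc
miR-125b-5p: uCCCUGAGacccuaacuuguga

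Both libraries carried the cartilage miRNAs. MiR-140-3p, made from an intron of Wwp2 and characteristic of chondrocytes, had 24948 reads in RC-cells against 37484 in GC-cells. Of 7 markers of skeletal and cardiac muscle, 2 had at least 10 reads on both sides, and nearly all of the 648 and 637 reads of that list were miR-499-5p. The other muscle markers with reads stood towards GC-cells at low counts. They were miR-1-3p with 6 and 21 reads, miR-206-3p with 18 and 28, miR-133a-3p with 0 and 3 and miR-133b-3p with 0 and 1. The interval of miR-206-3p included equality, and miR-208a-3p and miR-208b-3p had 0 reads in both. The part of these markers in the results was not tested. The 6 blood and immune markers in the table summed to 81 and 90 reads, the 6 epithelial markers to 51 and 62, the liver marker miR-122-5p to 32 and 34, the 5 neural markers to 1385 and 1627, and the endothelial pair from miR-126a to 1731 and 1657. The RC-cells to GC-cells ratio of the summed share ran from 0.936 to 1.19 over these other-tissue lists, the muscle value of 1.16 being that of miR-499-5p for the most part. MiR-675, from the H19 transcript and also known from cartilage, had 0 reads for its 5p arm in both and 0 and 1 for its 3p arm.

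The pool was led by the same miRNAs in both zones. MiR-21-5p took 42.7% of RC-cells reads and 41.9% of GC-cells reads, and let-7i-5p 5.00% and 4.92%. The second most abundant, miR-143-3p, took 11.2% of RC-cells reads and 20.7% of GC-cells reads. Of the 20 most abundant miRNAs of each library 18 were shared, and together the 20 made up 83.7% of RC-cells and 86.9% of GC-cells reads. In the 22 miRNAs of the joined lists 19 had the higher percent in RC-cells and 3 in GC-cells (miR-143-3p, miR-10a-5p and miR-30d-5p), and by percents miR-10a-5p alone differed at least 2-fold. Scaled instead by the DESeq2 size factors described below, 11 stood towards each zone, and miR-143-3p passed 2-fold as well. The zones differed in 10.7 percentage points of the pool, and miR-143-3p made up 9.48 of these points, or 88.2%. Next in size came miR-27b-3p, with 1.51 points more in RC-cells, miR-199a-5p with 0.820, miR-21-5p with 0.798 and miR-127-3p with 0.606, and then miR-10a-5p with 0.576 points more in GC-cells.

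Most ratios by percents leaned towards RC-cells. The median log2 ratio of RC-cells to GC-cells was 0.29 over the 379 miRNAs (1.22-fold), with a 10th percentile of -0.44 and a 90th of 1.01. Of the log2 ratios 277 (73.1%) lay above 0 and 102 below. On size factors 200 (52.8%) lay above 0 and the median was 0.05, and under TMM the median was -0.05. With miR-143-3p left out of both totals, a choice made after the data were seen, every log2 ratio fell by 0.16. With miR-21-5p left out each was 0.02 higher. Such a change is the same for every miRNA, so it moves the point of equality and leaves the order of the miRNAs as it was. Scaled by DESeq2's median-of-ratios size factors each log2 ratio fell by 0.24, and by edgeR's TMM by 0.34. A second value, on size factors, is therefore given below for many of the sums, counts and single cell ratios. Cell ratios without one are by percents, and each falls by the same 0.24 in log2 on size factors.

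**Figure D1:**
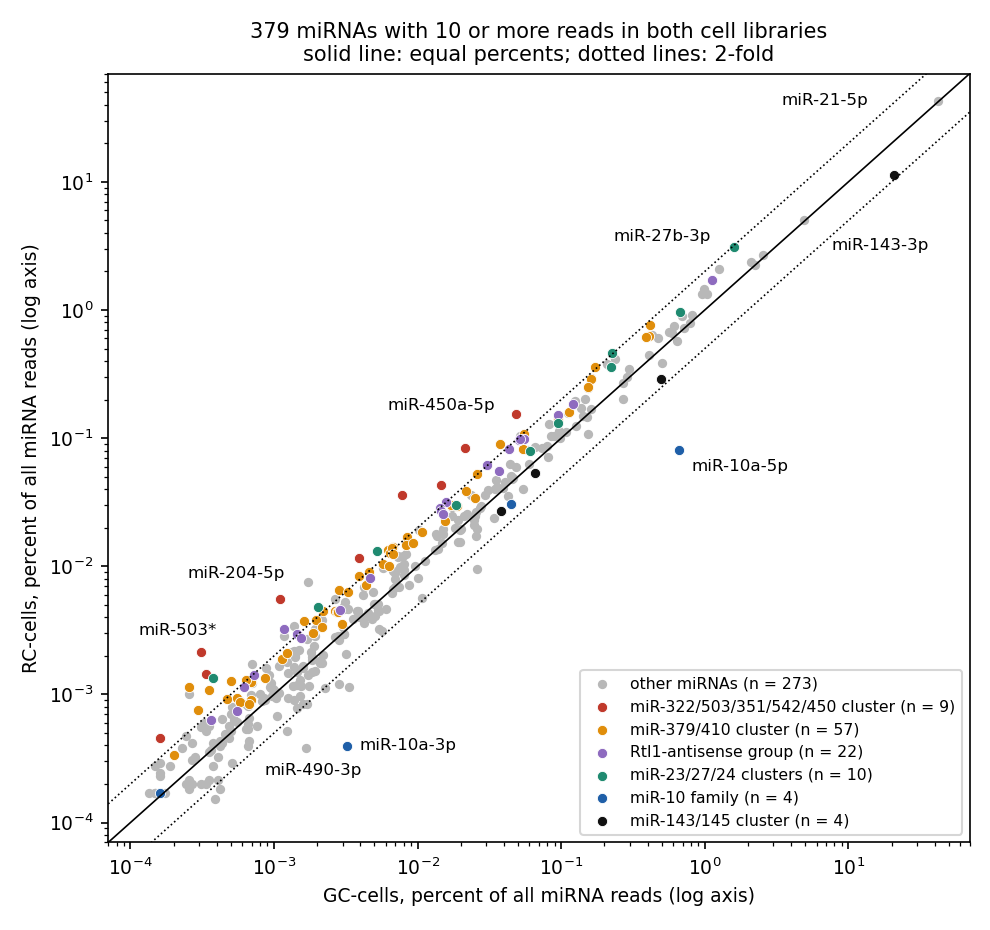
Percent of all miRNA reads in RC-cells (vertical) against GC-cells (horizontal), both on log axes, for the 379 miRNAs with at least 10 reads in each library. The solid line marks equal percents and the dotted lines 2-fold, and 6 families and clusters are coloured. All 9 points of the miR-322/miR-503/miR-351/miR-542/miR-450 cluster lie above the upper dotted line, the points of miR-10a-5p and miR-10a-3p lie far below the lower one, and most of the others sit slightly above the solid line, where they move down by 0.24 log2 units on size factors.

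At 2-fold, 40 of the 379 miRNAs (10.6%) were higher in RC-cells and 10 (2.64%) in GC-cells, together 13.2%. On size factors the counts came closer, to 23 (6.07%) and 19 (5.01%). All 23 were among the 40, and all 10 were among the 19. The whole counting interval lay beyond 2-fold for 17 of the 40 and for 5 of the 10. Of the 40 miRNAs, 37 belonged to the families and clusters listed for this comparison, which held 265 (69.9%) of all measured miRNAs, 9 of them to a single X-linked cluster and 20 to the imprinted miRNAs of chromosome 6. The 3 others were miR-147, miR-1188-5p and miR-6331. Just inside the 2-fold line were miR-379-3p with 1103 and 626 reads, miR-411-3p with 3412 and 1923 and, towards GC-cells, miR-365-5p with 73 and 167. Just outside it were miR-382-5p with 7033 and 4051, miR-431 with 1842 and 1067 and, towards GC-cells, miR-195-5p with 55 and 125.

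The clearest block of miRNAs with more reads in RC-cells was the X-linked miR-322/miR-503/miR-351/miR-542/miR-450 cluster. MiR-322 (the rodent form of miR-424) and miR-503 are known to repress cyclins and other cell cycle genes. All 9 of the 9 members with enough reads were at least 2-fold higher in RC-cells, by percents and by size factors, against 10.6% and 6.07% of all miRNAs. MiR-450a-5p had 10018 reads in RC-cells against 3610 in GC-cells, which was 3.16-fold (3.04 to 3.28). MiR-351 had 5430 and 1575 reads, 3.92-fold (3.71 to 4.15). MiR-542-3p had 2797 and 1084 reads, 2.94-fold (2.74 to 3.15). These 3 were the most read members, and their intervals lay wholly beyond 2-fold.

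The rest of the cluster stood the same way, and the less read product of miR-503 gave the highest ratio of all 379 miRNAs. MiR-322* had 2341 and 573 reads (4.65-fold, 4.24 to 5.10), and miR-322 had 750 and 291 (2.93-fold, 2.56 to 3.37). MiR-503 had 362 and 82 reads (5.02-fold, 3.94 to 6.46), and its other product miR-503* had 140 and 23 (6.93-fold, 4.43 to 11.3). Only miR-351*, which had the lowest counts, had an interval that reached below 2-fold. MiR-450a-3p had 94 and 25 reads (4.28-fold, 2.73 to 6.94) and miR-351* 30 and 12 (2.84-fold, 1.41 to 6.10). Summed, the cluster took 0.337% of RC-cells reads and 0.0982% of GC-cells reads, a ratio of 3.43 (3.34 to 3.53), or 2.91 on size factors. Without its most read member, miR-450a-5p, the log2 ratio of the sum was 1.89 in place of 1.78. The other X-linked groups listed stood lower. The miR-500/miR-362/miR-532 cluster summed to 8919 and 10418 reads (log2 ratio -0.04, and -0.28 on size factors), and miR-374, miR-421 and miR-545 to 2455 and 1696 (0.72 and 0.48). No measured member of either reached 2-fold, by percents or on size factors, against 13.2% and 11.1% of all miRNAs in either direction. The miR-221/miR-222 cluster, also X-linked, is given below.

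MiR-204-5p and miR-211-5p lie in introns of Trpm3 and Trpm1 and are known to repress Runx2 in mesenchymal progenitors. They were the other family with both measured members called higher in RC-cells, by percents and on size factors, against 10.6% and 6.07% of all miRNAs. MiR-204-5p had 488 reads in RC-cells against 128 in GC-cells, 4.34-fold (3.56 to 5.31). MiR-211-5p had 223 and 102, 2.49-fold (1.96 to 3.18). It fell just short of 2-fold by TMM and without the 3 most abundant miRNAs in the totals. The family sum was 3.52-fold higher (3.03 to 4.10), with a log2 ratio of 1.82 by percents and 1.58 on size factors. Since the pair differ at 1 base, reads may have been divided between them by the alignment.

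The other miRNAs listed for their known repression of Runx2 or their part in hypertrophy did not stand on one side. MiR-218a-5p had 2599 reads in RC-cells against 4006 in GC-cells and was 1.35-fold higher in GC-cells (1.29 to 1.42). MiR-1, miR-206 and miR-133, muscle miRNAs of which miR-133 is known to act on Runx2, summed to 26 and 56 reads and were 1.89-fold higher in GC-cells (1.17 to 3.14), but only miR-206-3p had enough reads to be measured by itself. In the vesicles this sum was 20 and 74 reads, 4.18-fold higher in GC-MVs (2.52 to 7.23). MiR-338-5p and miR-338-3p had 0 reads in both libraries, which allows shares of up to 4.60e-05% and 4.05e-05%. No value is given for miR-335. The miR-30 family, whose members also target Runx2, summed to 1.84% and 1.87% of the pool, a log2 ratio of -0.02 (-0.26 on size factors). None of its 10 measured members reached 2-fold, by percents or on size factors, against 13.2% and 11.1% of all miRNAs in either direction.

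Within the miR-23/miR-27/miR-24 group the zones differed by locus. The group holds a pair of paralogous clusters, miR-23b/miR-27b/miR-24-1 on chromosome 17 and miR-23a/miR-27a/miR-24-2 on chromosome 19, and its miRNAs are known to act on adipogenic and osteogenic regulators such as Pparg and Runx2. All 10 measured members had log2 ratios above 0, against 73.1% of all miRNAs (52.8% on size factors). At 2-fold 4 (40.0%) were higher in RC-cells, against 10.6%. The 4 all came from the miR-23b/miR-27b/miR-24-1 locus. MiR-23b-3p had 30087 reads in RC-cells against 16648 in GC-cells, 2.06-fold (2.02 to 2.10). MiR-27b-5p had 854 and 387, 2.51-fold (2.22 to 2.84), and miR-24-1-5p had 312 and 149, 2.38-fold (1.95 to 2.92). MiR-23b-5p, the rare arm, had 88 and 28, 3.57-fold (2.31 to 5.68). On size factors 3 of the 4 stayed at 2-fold, all but miR-23b-3p, against 6.07% of all miRNAs.

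MiR-27b-3p was the most abundant miRNA of the group and the fourth of RC-cells, at 3.11% of reads against 1.61% in GC-cells. It had 202909 and 119128 reads, 1.94-fold (1.92 to 1.95), just short of the call. Its paralog miR-27a-3p had 8591 and 6997 reads, 1.40-fold (1.35 to 1.44), and miR-23a-3p had 23192 and 16435, 1.61-fold (1.57 to 1.64). The locus on chromosome 17 was thus the further from equality. Summed over both arms, miR-23b and miR-27b had a log2 ratio of 0.97 (0.73 on size factors) and miR-23a and miR-27a 0.63 (0.39), a split made after the values were seen. The paralogs differ at few bases, so reads may have been divided between them by the alignment. MiR-24-3p, which both loci make, had 62405 and 49682 reads, 1.43-fold (1.41 to 1.45).

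The miR-181 family was split the same way, and this too was drawn up after the values were seen. Its 4 guide strands have 1 seed (acauuca). From miR-181a and miR-181b, 27409 reads came from RC-cells and 16621 from GC-cells, a log2 ratio of 0.91 (0.67 on size factors). From miR-181c and miR-181d the sums were 285 and 528, a log2 ratio of -0.70 (-0.94). MiR-181b-5p had 6825 and 3841 reads, 2.02-fold (1.94 to 2.10), and was not called on size factors (log2 ratio 0.78). MiR-181b-1-3p had 66 and 19, 3.95-fold (2.34 to 6.97), and was called on both scales, so that 2 of 8 measured members were called by percents, against 10.6% of all miRNAs, and 1 (12.5%, against 6.07%) on size factors. MiR-181a-5p, the most read, had 19212 and 11951, 1.83-fold (1.79 to 1.87). The rare arm miR-181a-2-3p had 43 and 50 reads, with a log2 ratio of -0.03 (-0.27 on size factors), and did not stand with them. Both of the rarer relatives stood in the other direction. MiR-181d-5p had 213 and 399 reads, 1.65-fold higher in GC-cells (1.39 to 1.95), and miR-181c-5p had 28 and 50, 1.57-fold (0.969 to 2.59).

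The imprinted miRNAs of rat chromosome 6, counterpart of the human DLK1-DIO3 domain, were the largest set with more reads in RC-cells. They are expressed from the maternal chromosome beside Meg3, and are known from embryonic tissue, stem cells and growing muscle. Of 79 measured members, 57 from the miR-379/miR-410 cluster and 22 from the group antisense to Rtl1 and its neighbours, every log2 ratio lay above 0 and on size factors 78 did, against 73.1% and 52.8% of all miRNAs. At 2-fold 20 (25.3%, against 10.6%) were higher in RC-cells, and 0 in GC-cells. On size factors 6 (7.59%) were, close to the 6.07% of all miRNAs, so the count of calls depended on the scale. Their median log2 ratio was 0.84 by percents and 0.60 on size factors, against 0.29 and 0.05 over all 379.

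In the miR-379/miR-410 cluster 16 of 57 (28.1%) were called, against 10.6% of all miRNAs, and 5 (8.77%) on size factors, against 6.07%. Its log2 ratios ran from 0.24 to 2.17 with a median of 0.82. The most abundant members lay under 2-fold. MiR-379-5p had 49990 reads in RC-cells against 30842 in GC-cells, 1.84-fold (1.82 to 1.87). MiR-381-3p had 41093 and 30286, 1.54-fold (1.52 to 1.57), and miR-541-5p had 40468 and 28790, 1.60-fold (1.58 to 1.62). Members at 2-fold were less read. The first of them was miR-411-5p with 23291 and 12759, 2.08-fold (2.03 to 2.12). MiR-494-3p had 5846 and 2769, 2.40-fold (2.30 to 2.51), and stayed at 2-fold on size factors (log2 ratio 1.03). The highest ratio belonged to the rare arm miR-410-5p, with 75 and 19 reads, 4.49-fold (2.69 to 7.87). The 5 members called on both scales were miR-410-5p, miR-543-5p (71 and 26 reads), miR-494-5p (83 and 37), miR-541-3p (49 and 22) and miR-494-3p.

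In the Rtl1-antisense group 4 of 22 (18.2%) were called, against 10.6% of all miRNAs, and on size factors 1 (4.55%), below the 6.07% of all. The median log2 ratio was 0.87 (0.63 on size factors). MiR-127-3p, which pairs with the Rtl1 transcript it lies opposite to, had 112685 reads in RC-cells against 83281 in GC-cells, 1.54-fold (1.53 to 1.55). MiR-136-5p had 2076 and 1160, 2.04-fold (1.89 to 2.19), and miR-493-5p had 4011 and 2246, 2.03-fold (1.93 to 2.14). The other 2 called members had fewer reads. MiR-337-3p had 194 and 107 reads, 2.06-fold (1.62 to 2.64). MiR-673-5p had 212 and 87, 2.77-fold (2.15 to 3.60), and was the 1 called on both scales. On the same stretch of the chromosome, outside both lists, miR-1188-5p had 112 and 52 reads, 2.45-fold (1.75 to 3.47), and miR-6331 had 363 and 198, 2.09-fold (1.75 to 2.49), and was not called on size factors (log2 ratio 0.82). Over the whole of chromosome 6, which includes the imprinted members given above, 87 of 93 log2 ratios lay above 0 (82 on size factors). Of all miRNAs 73.1% did (52.8% on size factors). Outside chromosomes 6 and X the median log2 ratio of 245 miRNAs was 0.11, with 9 called higher in RC-cells and 8 in GC-cells, against 10.6% and 2.64% of all 379. On size factors that median was -0.13, on the other side of 0, and the calls were 7 and 16, against 6.07% and 5.01% of all 379.

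**Figure D2:**
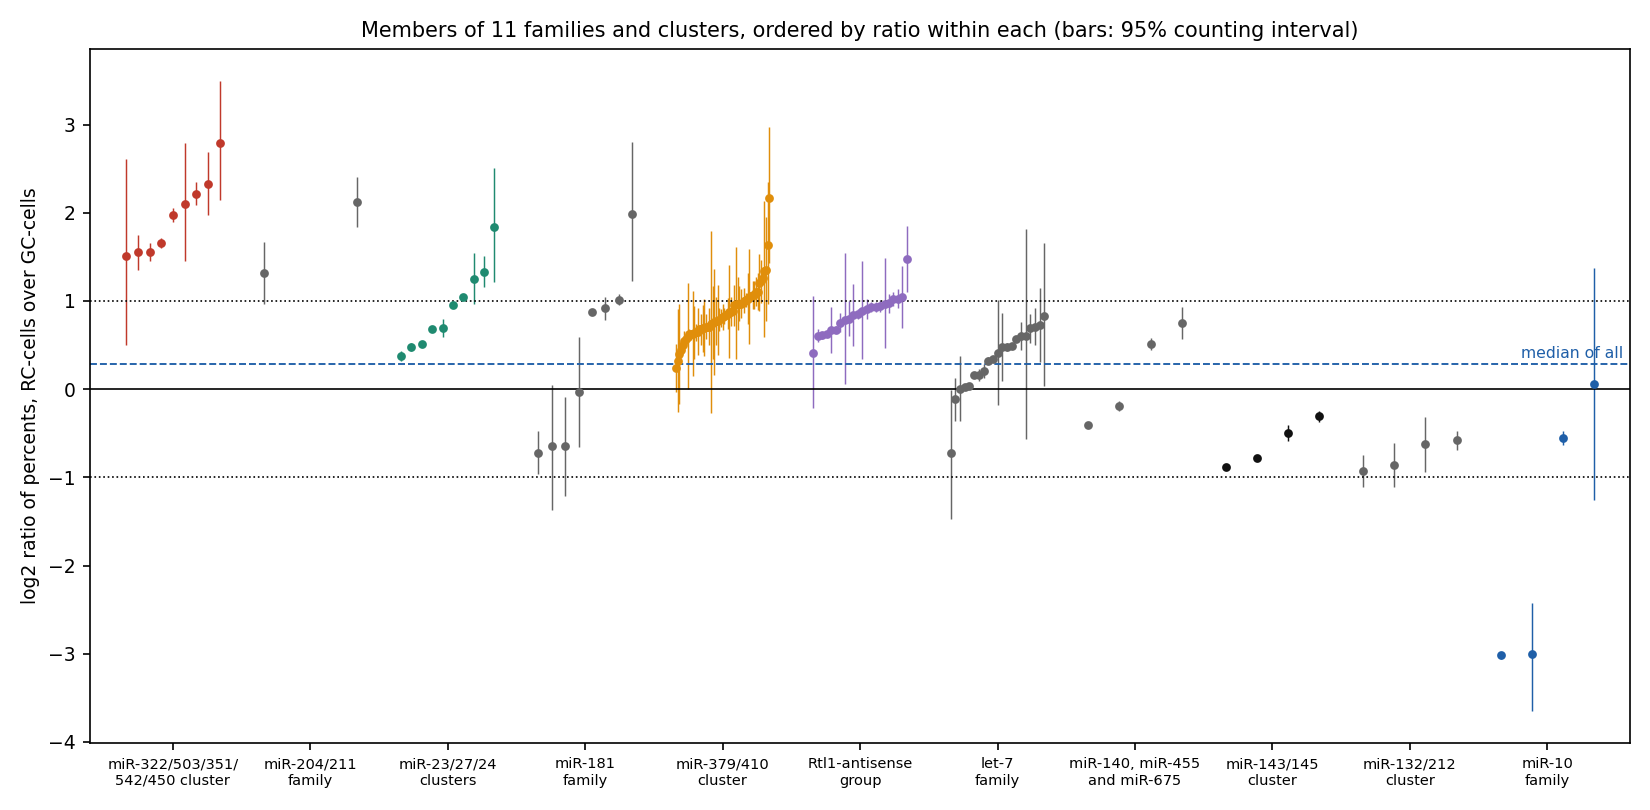
Log2 ratio of percents (RC-cells over GC-cells) of each measured member of 11 families and clusters, placed in order of its ratio within each, with 95% counting intervals. The solid line marks 0, the dotted lines 2-fold and the dashed line the median of all 379 miRNAs at 0.29, which falls to 0.05 on size factors. All points of the X-linked cluster lie above 1 and all 79 of the imprinted groups above 0, of which 78 stay there on size factors, and all points of the miR-143/miR-145 and miR-132/miR-212 clusters lie below 0.

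Of the other miRNAs higher in RC-cells at 2-fold, miR-147, known from inflammatory signalling, had 186 reads and 87 in GC-cells, 2.43-fold (1.88 to 3.17). Several abundant mesenchymal miRNAs were higher in RC-cells below that limit. The miR-199/miR-214 cluster, made from the Dnm3os transcript and needed for skeletal growth, summed to 3.77% and 2.39% of the pool, a log2 ratio of 0.66 (0.42 on size factors). Its leading member miR-199a-5p had 135083 and 92898 reads, 1.65-fold (1.64 to 1.67). The miR-221/miR-222 cluster, which represses the cell cycle inhibitor p27, had a log2 ratio of 0.74 (0.50), and miR-221-3p had 27052 and 17602 reads, 1.75-fold (1.71 to 1.78). All 4 measured members of each cluster had log2 ratios above 0 by percents and on size factors, against 73.1% and 52.8% of all miRNAs. None reached 2-fold, against 10.6% and 6.07% of all miRNAs towards RC-cells.

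The largest difference towards GC-cells was miR-10a. This miRNA gene lies in the HoxB cluster, and miR-10a is known to repress Hox transcripts. MiR-10a-5p had 5273 reads in RC-cells against 48677 in GC-cells, 0.0809% and 0.657% of the pool, 8.11-fold higher in GC-cells (7.89 to 8.35). It ranked 77th in RC-cells and 18th in GC-cells, and by percents no other miRNA among the 20 most abundant of either library differed 2-fold. The other arm, miR-10a-3p, had 26 and 238 reads, 8.05-fold (5.36 to 12.6). The log2 ratios of the arms were -3.02 and -3.01, a difference of -0.01 (interval -0.60 to 0.57).

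The other Hox-linked miRNAs differed less, and not all in that direction. MiR-10b-5p, from the HoxD cluster, had 1991 and 3332 reads and was 1.47-fold higher in GC-cells (1.39 to 1.56). MiR-10b-3p had 11 and 12 reads, too few to place (RC-cells to GC-cells 1.04, interval 0.417 to 2.58). MiR-196a-5p had 10 and 29 reads, 2.55-fold higher in GC-cells (1.21 to 5.86), and was the 1 of 6 products of its family with enough reads. MiR-615, from the HoxC cluster, had 80 and 52 reads and stood the other way, 1.75-fold higher in RC-cells (1.22 to 2.53).

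The miR-143/miR-145 cluster, the main mesenchymal and smooth muscle cluster, of which miR-145 is known to repress Sox9, was higher in GC-cells in all 4 arms. MiR-143-3p had 730396 reads in RC-cells against 1533595 in GC-cells, 1.85-fold (1.84 to 1.85). MiR-145-5p had 18763 and 36786, 1.72-fold (1.69 to 1.75). The minor arms differed less: miR-143-5p had 1751 and 2809 reads, 1.41-fold (1.33 to 1.498), and miR-145-3p had 3473 and 4885, 1.24-fold (1.18 to 1.29). By percents none was called, and on size factors miR-143-3p and miR-145-5p were, at log2 ratios of -1.12 and -1.02, against 2.64% and 5.01% of all miRNAs. The cluster sum had a log2 ratio of -0.88 (-1.12 on size factors).

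MiR-132 and miR-212, which share a transcript induced by CREB, were also higher in GC-cells in each of their 4 arms. MiR-212-5p had 368 and 798 reads, 1.91-fold (1.68 to 2.16), and miR-132-5p had 204 and 420, 1.81-fold (1.53 to 2.15). The 3p arms, which have 1 seed, were at 1.49-fold for miR-132-3p (1117 and 1895 reads, 1.38 to 1.61) and 1.54-fold for miR-212-3p (135 and 237 reads, 1.24 to 1.92). Both 5p arms passed 2-fold on size factors (log2 ratios -1.17 and -1.09) and by percents none of the 4 did, against 5.01% and 2.64% of all miRNAs. The summed log2 ratio was -0.69 (-0.93).

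Of the remaining miRNAs called higher in GC-cells, most had few reads. MiR-676 had the most, with 623 reads in RC-cells against 1918 in GC-cells, 2.71-fold (2.47 to 2.97). MiR-582-3p, from an intron of Pde4d, had 74 and 247, 2.93-fold (2.25 to 3.86), and its 5p arm had 13 and 25, 1.69-fold (0.833 to 3.60). MiR-490-3p, from an intron of Chrm2, had 25 and 124, 4.36-fold (2.82 to 6.996). MiR-182 and miR-183-5p, of a cluster best known from sensory cells, had 78 and 209 reads (2.36-fold, 1.81 to 3.10) and 34 and 91 (2.35-fold, 1.57 to 3.60), and their neighbour miR-96-5p had 5 and 13.

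MiR-365-5p and miR-1247-5p completed the 10. MiR-365, which responds to mechanical load in chondrocytes and targets Hdac4, had 73 and 167 reads of its 5p arm, 2.01-fold (1.52 to 2.69), and 1002 and 1466 of its 3p arm, 1.29-fold (1.19 to 1.40). The call of the 5p arm was lost with miR-21-5p left out of both totals. MiR-1247-5p had 12 and 31 reads, 2.27-fold (1.13 to 4.86). On size factors 9 further miRNAs passed 2-fold towards GC-cells. Apart from miR-143-3p, miR-145-5p, miR-195-5p, miR-132-5p and miR-212-5p, given with their clusters or families, these were miR-184 with 55 and 118 reads, miR-7b with 51 and 107, miR-6328 with 14 and 30 and miR-3558-3p with 19 and 38. Another miRNA missed the filter by a single read: miR-139-5p had 9 reads in RC-cells against 162 in GC-cells, 15.8-fold higher in GC-cells (8.13 to 35.2), and its 3p arm had 0 and 10.

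**Figure D3:**
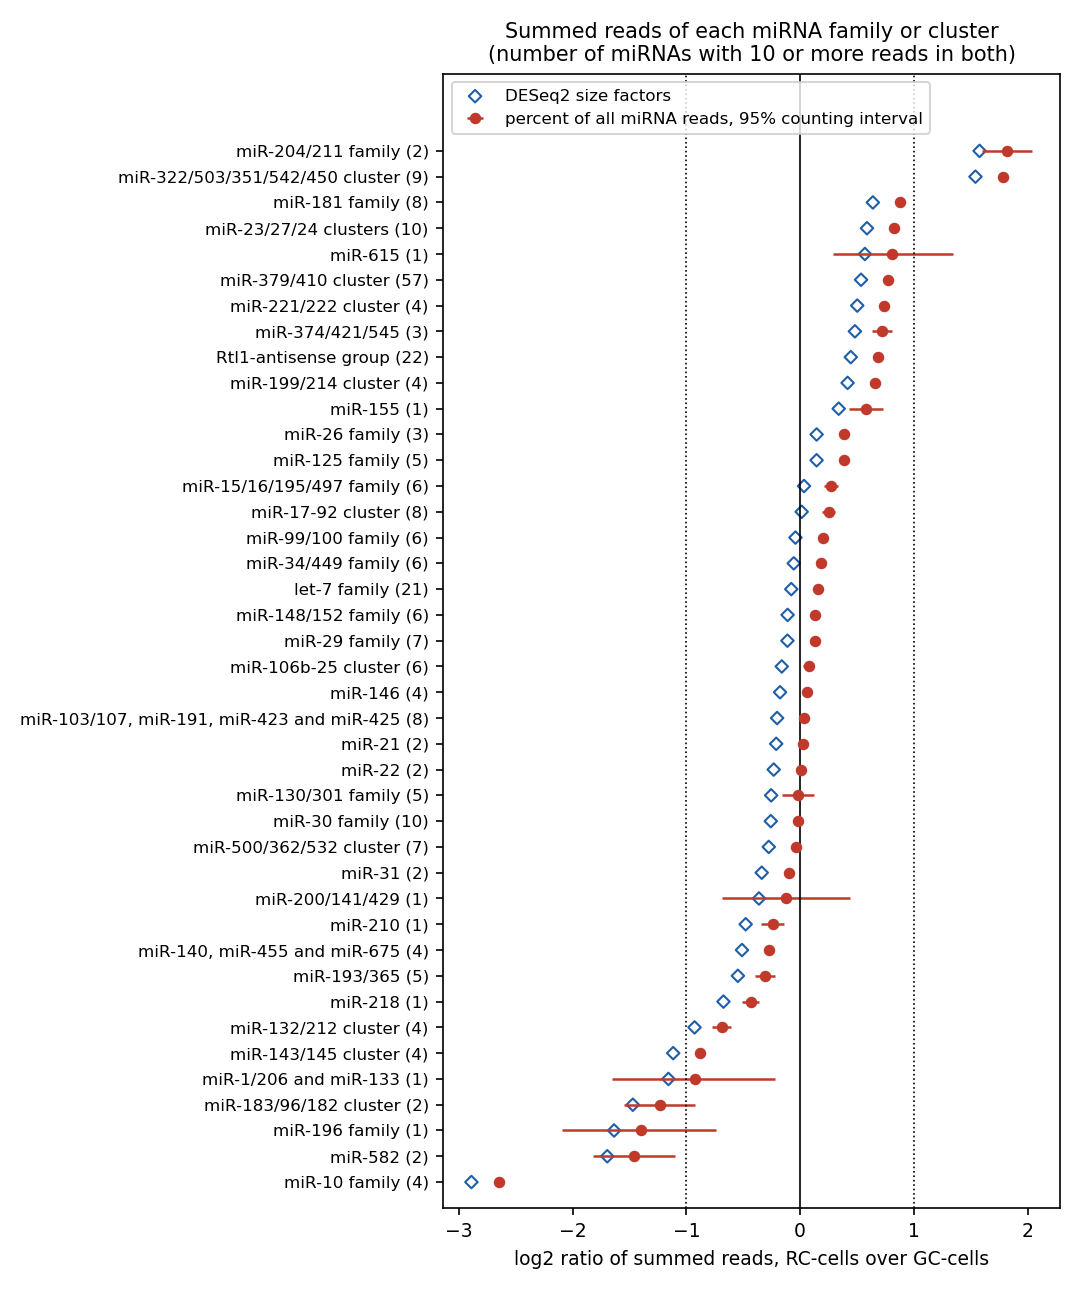
Log2 ratio of summed reads (RC-cells over GC-cells) of the 41 families and clusters with a measured member, by percents with a 95% counting interval (filled circles) and on size factors (open diamonds), with the number of measured miRNAs in brackets. The solid line marks 0 and the dotted lines 2-fold. The miR-204/miR-211 family (1.82) and the miR-322/miR-503/miR-351/miR-542/miR-450 cluster (1.78) stand at the top, the miR-10 family (-2.65) at the bottom, and the groups near 0, let-7, miR-21 and miR-22 among them, change side with the scale.

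Of the 41 families and clusters, 2 had summed ratios at least 2-fold towards RC-cells and 4 towards GC-cells (miR-10, miR-582, miR-196 and miR-183/miR-96/miR-182). On size factors the numbers were 2 and 6, with miR-143/miR-145 (2.17-fold) and the little read miR-1/miR-206 and miR-133 (2.23-fold) added towards GC-cells. The direction was towards RC-cells under each of the 6 scalings run in 13 and towards GC-cells in 15, and it depended on the scaling in the other 13. Those 13 included abundant families. Let-7 had a log2 ratio of 0.16 by percents and -0.08 on size factors, miR-21 0.03 and -0.21, miR-22 0.01 and -0.23, and miR-148/miR-152 0.13 and -0.11. None of the 21 measured let-7 products, which restrain proliferation, reached 2-fold on either scale. Of all miRNAs 13.2% did by percents and 11.1% on size factors. The commonly used reference miRNAs miR-103/miR-107, miR-191, miR-423 and miR-425 summed to 39487 and 43842 reads, a log2 ratio of 0.04 (-0.20 on size factors).

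The cartilage miRNAs were split by locus. MiR-140-3p was 1.32-fold higher in GC-cells (1.30 to 1.34), and miR-140-5p, with 4626 and 5993 reads, 1.14-fold (1.10 to 1.18). MiR-455, made from an intron of the collagen gene Col27a1, stood the other way: miR-455-5p had 4089 and 3255 reads, 1.43-fold higher in RC-cells (1.37 to 1.497), and miR-455-3p 632 and 428, 1.68-fold (1.48 to 1.90). No measured member of the set reached 2-fold, by percents or on size factors, against 13.2% and 11.1% of all miRNAs in either direction. The miR-29 family, known for its repression of collagen genes, summed to 29885 and 31154 reads, with a log2 ratio of 0.13 that became -0.11 on size factors.

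Relatives of the X-linked miR-322 by seed stood on both sides of equality. In the miR-15/miR-16/miR-195/miR-497 family miR-16-5p had 3856 reads in RC-cells against 3582 in GC-cells, 1.22-fold higher in RC-cells (1.17 to 1.28), and miR-15b-5p had 344 and 232, 1.69-fold (1.42 to 2.001). MiR-195-5p had 55 and 125 reads and lay just outside the call towards GC-cells (interval 1.44 to 2.80), and miR-497-5p, from the same locus, had 61 and 76, 1.10-fold (0.772 to 1.56). The 4 miRNAs that could be matched to this seed, without miR-322, summed to a log2 ratio of 0.29, or 0.05 on size factors, and fell below 0 by TMM, as did miR-16-5p. MiR-125a-5p and miR-125b-5p, which have the seed of miR-351-5p, summed to 0.38 (0.15). Of the other proliferation clusters, miR-17-92 had a summed log2 ratio of 0.25 (0.01), miR-106b-25 0.08 (-0.16) and miR-34/miR-449 0.18 (-0.06), each of them below 0 by TMM. None of their measured members reached 2-fold, by percents or on size factors, against 13.2% and 11.1% of all miRNAs in either direction.

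Grouped by seed over the 344 measured miRNAs with a RefSeq sequence, which leaves out miR-322, miR-503 and miR-351, 42 seeds had at least 2 measured miRNAs, and 3 of these differed 2-fold or more in their sum, all towards RC-cells. The first was that of miR-204-5p and miR-211-5p, given above. The seed of miR-410-5p and miR-494-5p had a summed log2 ratio of 1.69 (1.45 on size factors). That of miR-299a-5p and miR-299b-5p had 1.02 (0.78), which was under 2-fold on size factors. Of single miRNAs, 10.6% were called by percents towards RC-cells and 2.64% towards GC-cells. Across the 344 miRNAs, the log2 ratio had a Pearson correlation of -0.03 with the G and C content and -0.09 with the length.

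A ratio of the arms of 1 precursor does not depend on the total. Of 122 precursors with at least 10 reads of each arm in both libraries, 119 had arms whose log2 ratios lay within 1 of each other, with a median difference of 0.30, and the Pearson correlation of the arms was 0.81 across precursors, whose points come from the same pair of libraries. With at least 100 reads of each arm, 58 precursors had a median difference of 0.20 and a correlation of 0.86. Both arms were called in 8 precursors (miR-10a, miR-23b, miR-322, miR-351, miR-411, miR-450a, miR-494 and miR-503), 1 arm in 17. These were 33 of 244 arms (13.5%), near the 13.2% of all miRNAs called in either direction. On size factors both arms were called in 6, without miR-23b and miR-411, and 1 arm in 13, together 10.2% of the arms against 11.1% of all miRNAs.

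The balance of arms differed between the libraries by more than counting error in some precursors. The interval of the arm difference left out 0 in 43 of the 122. These intervals hold no spread between cultures, so a shift by zone was not tested. MiR-145-5p made up 84.4% of its precursor's reads in RC-cells against 88.3% in GC-cells, a difference of the log2 ratios of -0.48 (-0.55 to -0.41). MiR-322 made up 24.3% and 33.7% of the reads of its precursor (-0.66, -0.90 to -0.43), miR-322* making up the rest. The largest of these differences had few reads behind it. MiR-410-5p rested on 75 and 19 reads and made up 8.47% and 3.64% (1.29, 0.55 to 2.04). For miR-27b the 5p arm made up 0.419% and 0.324% (0.37, 0.20 to 0.55).

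**Figure D4:**
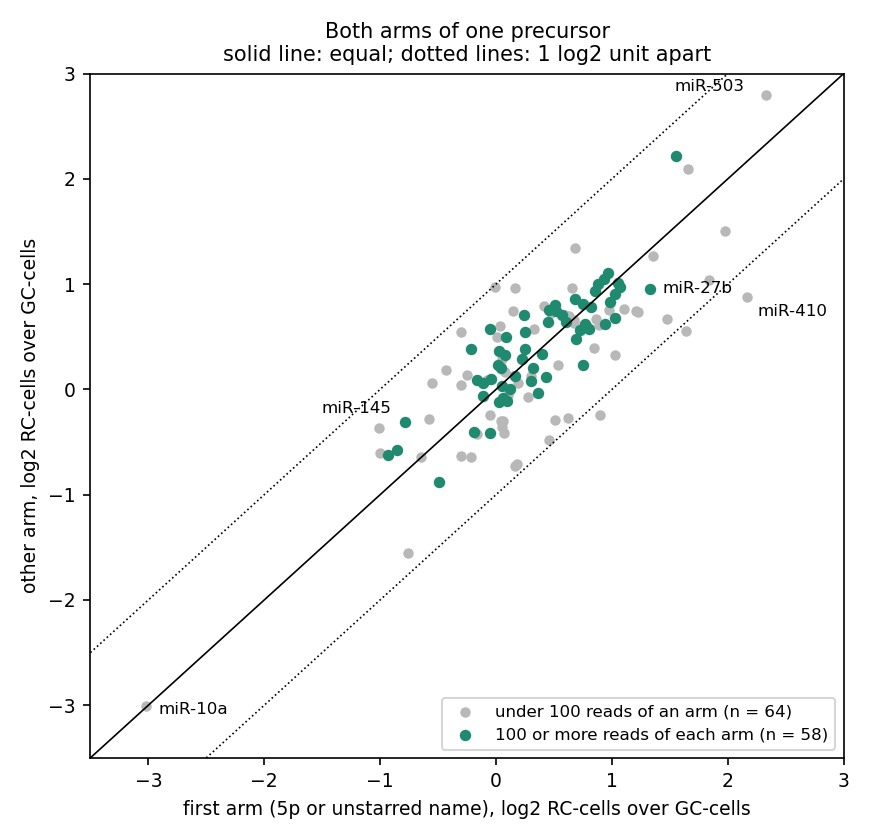
Log2 ratio (RC-cells over GC-cells) of one arm of each precursor against that of the other arm, for 122 precursors with at least 10 reads of each arm in both libraries. Green points have at least 100 reads of each arm (n = 58), the solid line marks equal ratios and the dotted lines a difference of 1. Points of miR-10a and miR-503 lie at opposite ends of the solid line, and 3 points lie outside the dotted lines.

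The vesicle libraries, which hold 1108821 reads from RC-MVs and 982543 from GC-MVs, are separate libraries from the same kinds of culture. Whether the cells and vesicles of a zone came from the same dishes was not given in the sources used here. The vesicles are therefore not taken as an independent sample of the zone. Over the 262 miRNAs that reached 10 reads in each of the 4 libraries, the log2 ratio of RC-MVs to GC-MVs had a Pearson correlation of 0.53 and a Spearman correlation of 0.51 with that of the cells, across miRNAs. Of the miRNAs called higher in RC-cells 20 had enough vesicle reads, 17 of these were also higher in RC-MVs and 9 at least 2-fold. Over the 262, 57.3% were higher in RC-MVs and 23.3% at 2-fold. Of those called higher in GC-cells 5 had enough reads, all 5 were higher in GC-MVs and 3 at least 2-fold, against 42.7% and 11.1%. The vesicle ratios are by percents, of which miR-143-3p took 11.8% in RC-MVs and 32.4% in GC-MVs. On size factors of the vesicle pair, a scale added after the data were seen, each vesicle log2 ratio fell by 0.15. Then 15 of the 20 were higher in RC-MVs, without miR-23b-3p and miR-494-3p, and 8 at least 2-fold, against 51.5% and 19.1%, and the counts for GC-MVs stayed at 5 and 3, against 48.5% and 13.0%.

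Several of the cell differences were also seen in the vesicles. The X-linked cluster summed to 2085 reads in RC-MVs against 306 in GC-MVs, 6.04-fold (5.35 to 6.83). Its member miR-351 had 1319 and 108 reads, 10.8-fold (8.89 to 13.3), and made up most of the cluster's RC-MVs reads. A vesicle sum without miR-351 was not taken. MiR-10a-5p had 579 and 3812, 7.43-fold higher in GC-MVs (6.81 to 8.12). MiR-139-5p, under the filter in cells with 9 reads in RC-cells, had 43 and 212 vesicle reads, 5.56-fold higher in GC-MVs (3.99 to 7.91). Both directions were seen in the vesicles. MiR-204-5p had 34 and 9 reads, the latter under the filter of 10, and was 3.35-fold higher in RC-MVs (1.57 to 7.94). MiR-143-3p had 130495 and 317902, 2.75-fold higher in GC-MVs (2.73 to 2.77).

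For other groups the vesicle ratio lay closer to 1 than in the cells or on the other side of it. The miR-199/miR-214 cluster had a ratio of RC-MVs to GC-MVs of 0.974 (0.952 to 0.996), and the miR-23/miR-27/miR-24 group 1.19 (1.16 to 1.21). On size factors their vesicle log2 ratios were -0.19 and 0.10. MiR-16-5p, which was 1.22-fold higher in RC-cells, had 74 and 362 vesicle reads, a ratio of 0.181 (0.139 to 0.233). MiR-490-3p, 4.36-fold higher in GC-cells, had 100 reads in RC-MVs against 116 in GC-MVs, 1.31-fold higher in GC-MVs (0.993 to 1.73).

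**Figure D5:**
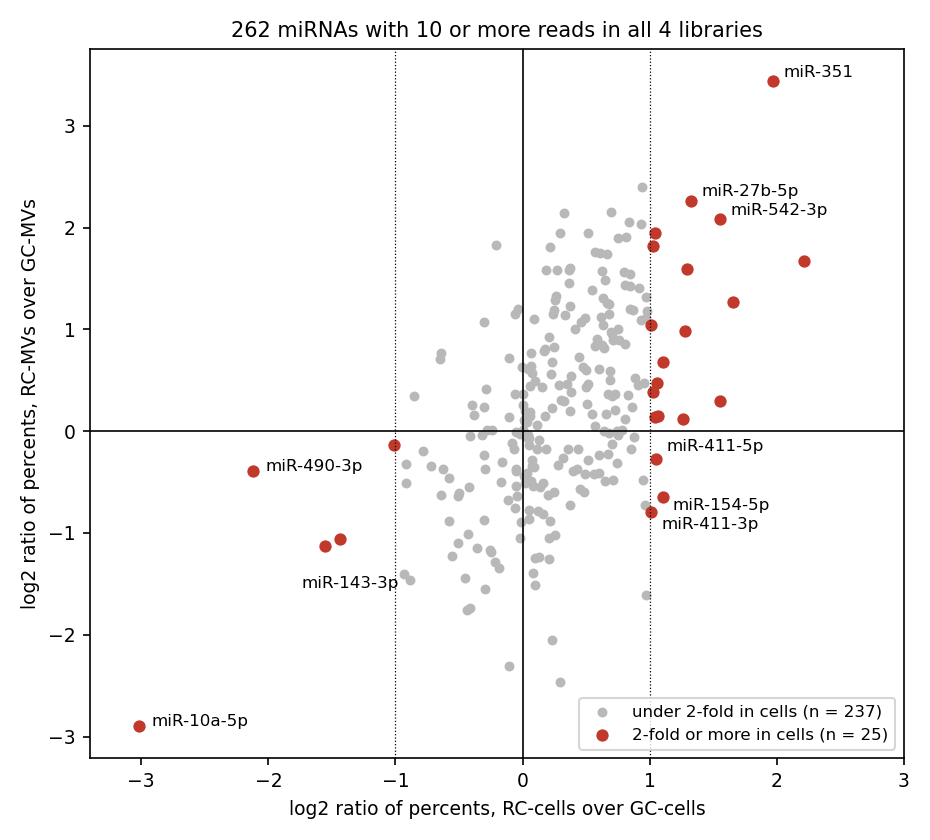
Log2 ratio of RC-MVs to GC-MVs (vertical) against that of RC-cells to GC-cells (horizontal) for the 262 miRNAs that reached 10 reads in each of the 4 libraries. Red points differ at least 2-fold in cells (n = 25) and the dotted lines mark that limit. All 5 red points on the left lie below 0, 17 of the 20 on the right lie above 0 (15 on size factors), and the 3 others are miR-154-5p, miR-411-3p and miR-411-5p.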

How the data were processed

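Each library was 1 small RNA sample of 1 cell or vesicle type, made with TRIzol and sequenced on an Illumina HiSeq. Per the study's methods, the authors checked reads with FASTQC, aligned them with Bowtie2 to the rat genome Rnor_6.0 (NCBI release 105) and counted them with miARma-Seq. The deposited values are whole-number read counts per miRNA locus, not normalized. Whether reads that match several loci were counted once, and how many animals were pooled, was not given in the sources used here, so counts of the 28 names with several loci, and of near-identical paralogs, are uncertain in how they divide.

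Loci of equal product name were summed (774 loci, 740 names), and each sum was divided by its library total. Totals were 6517329 reads for RC-cells, 7414467 for GC-cells, 1108821 for RC-MVs and 982543 for GC-MVs. Ratios of percents were taken for names with at least 10 reads in both cell libraries, with exact Clopper-Pearson intervals (95%) from the counts. No molecular identifiers are described, so intervals and the limit of 3 reads behind a count of 0 cover counting error only. Intervals of arm differences used a normal approximation to the log of the 4 counts. No count model was fitted, since a group was 1 library. TMM factors came from edgeR 4.0.16 and size factors from DESeq2 1.42.0 (R 4.3.3). All else was done in Python 3.11.15 (pandas 2.3.3, numpy 2.4.6, matplotlib 3.10.9 and scipy 1.17.1), and the calling step was tested on simulated data.

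Of 452 miRNA genes, 451 matched RefSeq GRCr8 by name, used for chromosome, neighbours and sequences; no coordinates are given because the files use another build. Named miRNAs were the 15 furthest from equality towards each zone, the 20 most abundant of either cell library, members of the listed families and clusters, tissue markers, and those under 10 reads on one side with at least 30 on the other. Calls outside the lists were few and were named after their values were seen. The members and lists were chosen with earlier results of these data known.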

Additional observations from a re-analysis of the deposited data

Results flagged for a closer look

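In 3 miRNAs called higher in RC-cells and read at least 10 times in each of the 4 libraries, the vesicles stood the other way, with lower percents in RC-MVs than in GC-MVs (on size factors miR-23b-3p and miR-494-3p joined them at log2 ratios of -0.01 and -0.02). The 3 lie in the imprinted miR-379/miR-410 cluster, whose summed vesicle ratio was 2.22 towards RC-MVs. The RC-MVs to GC-MVs ratio was 0.638 for miR-154-5p (59 and 82 vesicle reads, interval 0.448 to 0.902), against 2.15 in cells. For miR-411-5p it was 0.828 (226 and 242 reads, 0.687 to 0.996), against 2.08 in cells. For miR-411-3p it was 0.576 (13 and 20 reads, 0.263 to 1.22), against 2.02 in cells, and here the interval included equality. The difference between cells and vesicles was not tested, since each is 1 library.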

How the results depend on the processing

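Every alternative was a change of scale, filter, threshold, pseudocount or summing of loci on 1 library a side, so the library itself could not be varied. Depth limits the 129 miRNAs with the fewest reads (under 100 in a library). Their counting intervals reached a median of 0.63 log2 units to either side, against 0.02 for the 45 most read. No paired analysis was possible because each group was 1 library and no result came from a test. By percents 40 miRNAs were higher in RC-cells and 10 in GC-cells (13.2% in all), with a median log2 ratio of 0.29. Without the 3 most abundant miRNAs in the totals the counts were 17 and 23 and the median -0.0500, and edgeR's TMM gave 17, 23 and -0.0467. Without miR-143-3p, added after seeing the data, they were 25, 17 and 0.13, and with DESeq2's size factors 23, 19 and 0.0506. With at least 1 read in both the counts were 65 and 27 (19.4% of 474), with at least 100 reads 26 and 2 of 250. A 4-fold threshold left 6 and 3 (2.37%), and a whole interval beyond 2-fold 17 and 5 (5.805%). Leaving miR-21-5p out gave 41 and 9, of which 40 and 9 were shared with the main calls, and counting each locus on its own gave 41 and 10. With a pseudocount of 0.5 the counts were 40 and 10. The 17 RC-cells calls under TMM were all among the 40, and all 10 GC-cells calls were among the 23. A common change of scale shifts every ratio by the same amount by construction.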
